A study of Sus scrofa with 20 samples.

Results

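The lysosomal genes described here are 38 genes for enzymes, activators and membrane proteins of the lysosome, measured in the hypothalamus of 10 high-reactive (HR) and 10 low-reactive (LR) pigs. They were chosen by gene symbol, and 30 of the 38 had a probe set of that name on the array, out of 13755 named genes in all. These 30 genes had 54 probe sets, of which 49 passed the filter on dim probe sets, and each gene is represented by its probe set of highest mean over the 20 arrays unless stated otherwise. All 30 of these brightest probe sets passed that filter, and AGA is given with both of its probe sets. The other 8 genes (CTSL, GLA, NAGLU, MAN2B1, ARSA, ASAH1, GALC and GM2A) had no probe set under these symbols. HR and LR describe how an animal copes with a stressor, scored in the piglet from its struggling when held on its back. All animals were adult German Landrace pigs, and neither group received a treatment. Selection used both the extremes of coping behaviour and the haplotype in a behaviour-linked interval on chromosome 12, so behaviour and haplotype cannot be told apart, and the sex of the animals is not given in the labels. RNA came from the whole excised hypothalamus, and fewer cells of a type and less RNA per cell cannot be told apart in such samples. Nothing in the labels pairs the arrays across the groups, and each array is taken as 1 animal.

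Lysosomes are acidic organelles in which hydrolases break down proteins, glycans and lipids delivered by endocytosis and autophagy. Most soluble hydrolases carry a mannose 6-phosphate tag that sorts them to the lysosome, while heavily glycosylated membrane proteins such as LAMP1 and LAMP2 line its limiting membrane. In the brain, neurons and microglia depend on this degradation, and loss of many of these genes causes storage diseases with neurodegeneration in humans. Many lysosomal genes are controlled together by the transcription factor TFEB in human cells.

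The values are log2 values after the robust multichip average (RMA), so a difference of 1 is a 2-fold change, and differences are given as HR minus LR with their standard error. RMA values depend on the probes, and values of different genes are therefore not compared with each other. The 69 background controls of the array, whose probes are not designed to any pig transcript, had a mean of 4.09 ± 0.26 in HR and 4.01 ± 0.17 in LR arrays (SD, n = 10 each). It was highest in HR replicates 5 (4.44) and 4 (4.39) and lowest in LR replicate 8 (3.68), HR replicate 8 (3.73), HR replicate 9 (3.74) and LR replicate 3 (3.76). The hypothalamic markers AVP (vasopressin), OXT (oxytocin), HCRT and PMCH were present on the arrays with mean log2 values of 12.01, 11.92, 9.58 and 9.56 over the 20 arrays. LR replicate 3 stood apart, with the lowest mean of the hypothalamic marker list (7.93, against a median of 8.65 in LR) and the highest mean of the thalamus list (8.49, against a median of 7.06 in LR). The 10 measured microglia markers averaged 8.90 ± 0.14 in HR and 8.83 ± 0.21 in LR, and the 10 measured neuron markers averaged 9.79 ± 0.29 in HR and 9.97 ± 0.26 in LR (SD, n = 10 each). The neuron marker mean ranged over 9.30 to 10.22 in HR and 9.62 to 10.52 in LR, and 8 of these 10 markers had differences below 0.

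No lysosomal gene passed the threshold between HR and LR. With limma, 0 of 30 had an adjusted p under 0.05, as did 0% of all 23861 probe sets tested, and the smallest adjusted p among the 30 was 0.861. Without adjustment, 2 of 30 had a p under 0.05, PPT1 and LIPA, both with lower values in HR, which is 6.67% of them. Of all probe sets tested, 4.57% were at that level, 3.36% with lower and 1.21% with higher values in HR, and 0 of the 30 genes were higher in HR at that level. The exact rank-sum test likewise gave 0 of 30 after adjustment and 2 of 30 at an unadjusted p under 0.05, here PPT1 and SGSH, against 3.68% of all probe sets. The differences lay between -0.41 (LAMP2) and 0.22 (SGSH), with 13 below and 17 above 0. Their median was 0.01, the same as the median of 0.01 over all probe sets tested. The 95% interval of the difference excluded a change over 1.5-fold in either direction for 25 of 30 genes (83.3%), against 77.6% of all probe sets. HR and LR values overlapped in all 30 genes, but the share of all probe sets with such an overlap was not counted, so this does not set these genes apart.

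**Figure D1:**
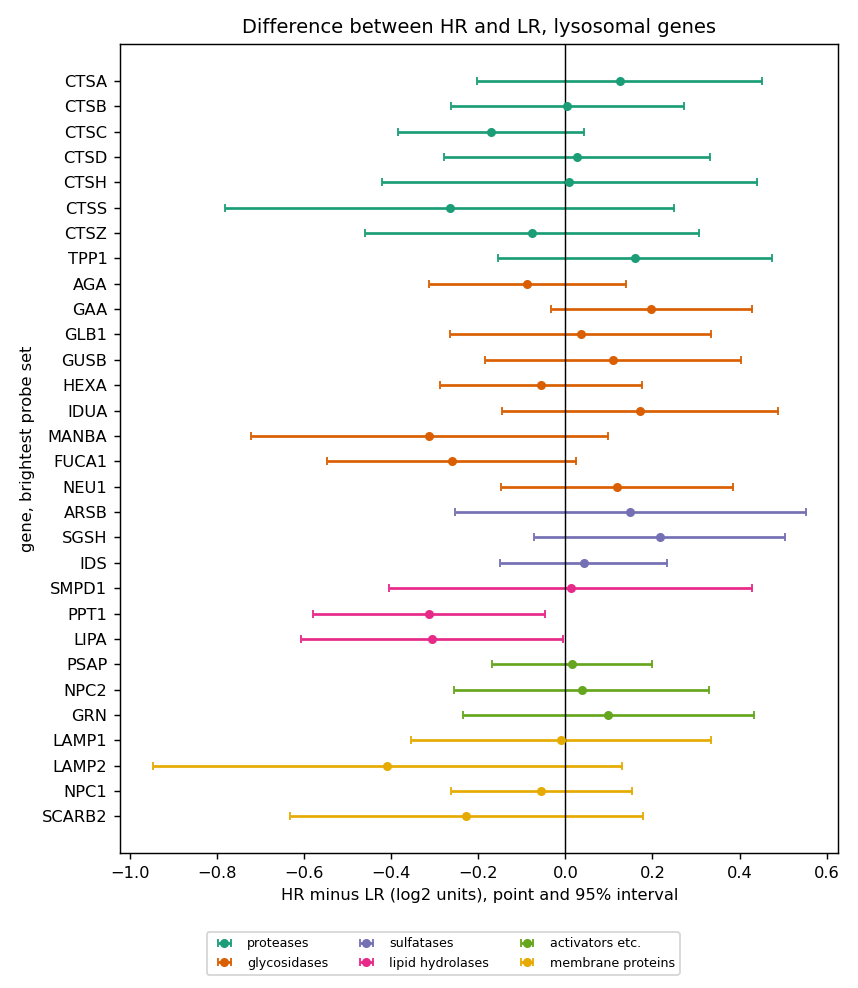
Difference between HR and LR (HR minus LR, log2 units) for the 30 lysosomal genes, 1 row per gene grouped and coloured by role, with the 95% interval of limma from 10 HR and 10 LR arrays. The intervals of PPT1 and LIPA lie below 0, that of LIPA only just, and those of the other genes include 0.

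Among the 3 measured hydrolases of lipids and lipid anchors, PPT1 and LIPA had lower values in HR and SMPD1 had nearly equal means. PPT1, palmitoyl-protein thioesterase, removes fatty acids from proteins and is deficient in an infantile form of neuronal ceroid lipofuscinosis. Its log2 values had a lowest, median and highest of 8.68, 9.52 and 9.73 in HR and of 9.42, 9.68 and 9.99 in LR. The groups overlapped, but 9 of 10 HR arrays lay below the LR mean and 4 lay below the lowest LR array. The difference was -0.31 ± 0.13 (95% interval -0.58 to -0.05, unadjusted p = 0.0230, adjusted p = 0.861 with limma). LIPA, the acid lipase that releases cholesterol and fatty acids from lipoprotein lipids, had 7.77, 8.72 and 9.10 in HR and 8.73, 8.90 and 9.16 in LR. Here 5 of 10 HR arrays lay below the lowest LR array, and the difference was -0.31 ± 0.15 (unadjusted p = 0.0469, adjusted p = 0.861). The 2 lowest arrays of both genes were HR replicates 4 and 5, which also had the highest background control means. PPT1 had 8.68 and 8.82 in these arrays, and LIPA had 7.77 and 8.005. Without both arrays the differences were -0.16 ± 0.09 for PPT1 (unadjusted p = 0.108) and -0.12 ± 0.10 for LIPA (unadjusted p = 0.236), and neither gene remained at an unadjusted p under 0.05. This setting was chosen after seeing the data, and leaving out the lowest HR arrays necessarily raises the HR mean. The same applies to the other genes below for which these 2 low arrays were left out. With the background control mean as a covariate the differences of PPT1 and LIPA were -0.25 ± 0.10 and -0.24 ± 0.13. With the neuron marker mean as a covariate they were -0.19 ± 0.11 for PPT1 (unadjusted p = 0.0912) and -0.19 ± 0.13 for LIPA (unadjusted p = 0.162), so neither was at an unadjusted p under 0.05. The microglia marker mean as a covariate instead gave -0.29 ± 0.13 for PPT1 (unadjusted p = 0.0341) and -0.29 ± 0.15 for LIPA (unadjusted p = 0.0638). SMPD1, the acid sphingomyelinase, averaged 7.98 ± 0.56 in HR and 7.97 ± 0.38 in LR (SD, n = 10 each), a difference of 0.01 ± 0.20.

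**Figure D2:**
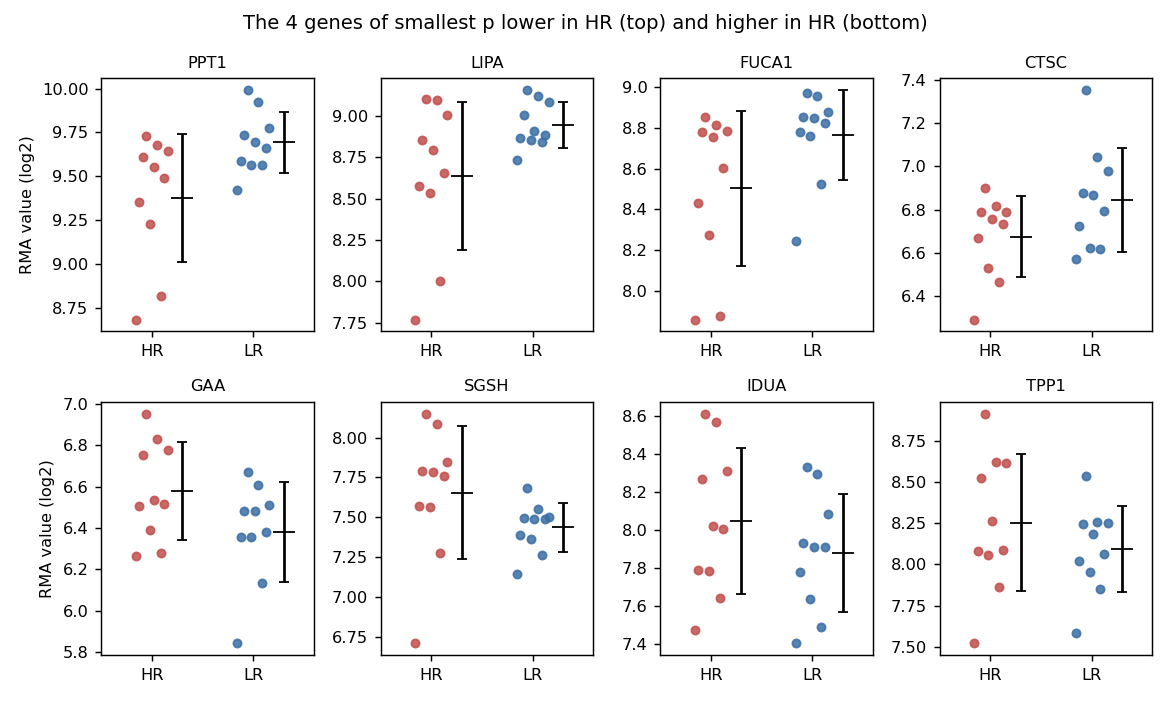
RMA values (log2) of PPT1, LIPA, FUCA1 and CTSC (top) and of GAA, SGSH, IDUA and TPP1 (bottom), the 4 genes of smallest p in each direction. Each point is 1 array, HR left and LR right, with the mean and SD of 10 arrays beside them. The vertical scales differ between genes. In PPT1 and LIPA a pair of HR arrays lies far below all others, and in SGSH 6 of 10 HR arrays lie above every LR array.

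None of the 8 measured proteases was at an unadjusted p under 0.05, with differences between -0.27 (CTSS) and 0.16 (TPP1) and 3 below and 5 above 0. CTSC, dipeptidyl peptidase 1, which activates serine proteases of immune cells, had a lowest, median and highest of 6.29, 6.75 and 6.90 in HR and of 6.57, 6.83 and 7.35 in LR. In this gene 9 of 10 HR arrays lay below the LR mean, and the difference was -0.17 ± 0.10 (unadjusted p = 0.112). TPP1, tripeptidyl peptidase 1, whose loss causes a late infantile ceroid lipofuscinosis, had 7.52, 8.17 and 8.92 in HR and 7.59, 8.12 and 8.53 in LR. The 3 highest TPP1 arrays were HR, while the medians were close, and the difference was 0.16 ± 0.15. CTSD, the main aspartic protease of the lysosome, had 9.42, 10.18 and 10.60 in HR and 9.62, 10.17 and 10.51 in LR, a difference of 0.03 ± 0.15. The LR range of CTSD lay inside the HR range. CTSS, a cysteine protease of antigen-presenting cells and microglia, had 6.03, 7.58 and 8.33 in HR and 7.03, 7.79 and 8.02 in LR. CTSS was spread more widely in HR (SD 0.79) than in LR (SD 0.31), with 4 HR arrays below and 2 above the whole LR range, and its difference was -0.27 ± 0.25. Without HR replicates 4 and 5 that difference was -0.02 ± 0.21, and with the neuron marker mean as a covariate it was -0.01 ± 0.20. The microglia marker mean as a covariate instead gave -0.18 ± 0.24 for CTSS. The cysteine proteases CTSB, CTSH and CTSZ differed by 0.00 ± 0.13, 0.01 ± 0.21 and -0.08 ± 0.19. With the neuron marker mean as a covariate CTSZ differed by -0.31 ± 0.12 (unadjusted p = 0.0205, adjusted p = 0.843 with limma), while TPP1 differed by -0.00 ± 0.12. Under the microglia covariate they differed by -0.15 ± 0.17 and 0.08 ± 0.13. The carboxypeptidase CTSA, also known as protective protein of beta-galactosidase and neuraminidase, differed by 0.13 ± 0.16. The probe sets of CTSB and CTSH can bind several transcripts.

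The 9 measured glycosidases, which remove sugars from glycoproteins, glycolipids and glycosaminoglycans, had 0 at an unadjusted p under 0.05, with 4 differences below and 5 above 0. FUCA1, which removes fucose, had a lowest, median and highest of 7.86, 8.68 and 8.85 in HR and of 8.24, 8.84 and 8.97 in LR. HR replicates 5 and 4 were again the lowest arrays of FUCA1, and the difference of -0.26 ± 0.14 over all arrays (unadjusted p = 0.0715) was -0.10 ± 0.11 without them. MANBA, the beta-mannosidase, followed the same arrays, with 6.37 at its lowest in HR replicate 4, and differed by -0.31 ± 0.20 over all arrays and by -0.09 ± 0.16 without these HR arrays. GAA, the acid alpha-glucosidase that degrades glycogen, had 6.27, 6.52 and 6.95 in HR and 5.84, 6.43 and 6.67 in LR. The 4 highest GAA arrays were HR and its lowest array was LR replicate 3. The difference was 0.20 ± 0.11 over all arrays (unadjusted p = 0.0907), 0.14 ± 0.10 without LR replicate 3 and 0.12 ± 0.06 with the background control mean as a covariate. With the neuron marker mean as a covariate GAA differed by 0.06 ± 0.07, FUCA1 by -0.12 ± 0.11 and MANBA by -0.08 ± 0.15. The microglia marker mean as a covariate instead gave 0.14 ± 0.10, -0.24 ± 0.14 and -0.24 ± 0.19 for these genes. IDUA, which acts on dermatan and heparan sulfate, had 7.48, 8.01 and 8.62 in HR and 7.40, 7.91 and 8.33 in LR, a difference of 0.17 ± 0.15 that was 0.05 ± 0.07 after adding the background and -0.03 ± 0.10 after adding the neuron marker mean to the fit. Adding the microglia marker mean instead gave 0.09 ± 0.13 for IDUA. HEXA, the alpha subunit of beta-hexosaminidase, had 7.75, 8.19 and 8.63 in HR and 7.97, 8.27 and 8.70 in LR. Its difference was -0.06 ± 0.11, and 1 HR array lay below the LR range and none above it. GUSB, NEU1 and GLB1 differed by 0.11 ± 0.14, 0.12 ± 0.13 and 0.03 ± 0.14. These 3 are the beta-glucuronidase, the sialidase and the beta-galactosidase of the lysosome. The probe set of IDUA can bind several transcripts.

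The 3 measured sulfatases, which remove sulfate from glycosaminoglycans, all had differences above 0 with none at an unadjusted p under 0.05 in limma. SGSH, the sulfamidase of heparan sulfate breakdown, had a lowest, median and highest of 6.71, 7.77 and 8.15 in HR and of 7.15, 7.49 and 7.68 in LR. In 6 of 10 HR arrays it lay above every LR array, while HR replicate 8 was the lowest of all 20. The difference was 0.22 ± 0.14 with limma (unadjusted p = 0.134), and the exact rank-sum test gave an unadjusted p of 0.0232. Leaving out HR replicate 8, the array with this lowest value, necessarily raises the difference, here to 0.32 with limma (unadjusted p = 0.00623, adjusted p = 0.486). Of 20 fits with a single array left out, this was the only 1 with SGSH at an unadjusted p under 0.05. The other 2 SGSH probe sets had 0.01 ± 0.14 and 0.06 ± 0.12. ARSB, which acts on dermatan and chondroitin sulfate, differed by 0.15 ± 0.19 and IDS, the iduronate sulfatase, by 0.04 ± 0.09.

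PSAP, NPC2 and GRN, which assist hydrolases or carry lipids, had differences between 0.01 and 0.10 with none at an unadjusted p under 0.05. PSAP, the precursor of the saposins that present sphingolipids to their hydrolases, had a lowest, median and highest of 11.58, 11.94 and 12.19 in HR and of 11.63, 11.92 and 12.18 in LR. The groups were almost congruent, differing by 0.01 ± 0.09, with a 95% interval of -0.17 to 0.20. GRN encodes progranulin, the precursor of the granulins, and loss of GRN in humans causes frontotemporal dementia. It had 7.34, 8.07 and 8.78 in HR and 7.59, 7.97 and 8.48 in LR, a difference of 0.10 ± 0.16. NPC2, which hands cholesterol to NPC1, had 8.50, 9.22 and 9.34 in HR and 8.22, 9.12 and 9.50 in LR. Its lowest array was LR replicate 3, and the difference was 0.04 ± 0.14 over all arrays and -0.06 ± 0.12 without that array.

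The 4 measured membrane proteins had differences from -0.41 to -0.01 with none at an unadjusted p under 0.05, and LAMP1 was above 0 with repeated quantile normalisation or centring of the arrays. LAMP2, which also serves as a receptor in chaperone-mediated autophagy, had a lowest, median and highest of 10.05, 11.60 and 12.11 in HR and of 10.99, 11.77 and 12.06 in LR. In HR, replicates 4, 5, 10 and 3 (10.05, 10.08, 10.57 and 10.90) lay below the whole LR range and the other 6 lay within or above it. The difference was -0.41 ± 0.26 (95% interval -0.95 to 0.13), -0.11 ± 0.20 without HR replicates 4 and 5, and -0.20 ± 0.13 with the background control mean as a covariate. With the neuron marker mean as a covariate it was -0.05 ± 0.15 (unadjusted p = 0.752), and with the microglia marker mean -0.29 ± 0.23. SCARB2, the receptor that carries beta-glucocerebrosidase to the lysosome, showed the same arrays at its low end and differed by -0.23 ± 0.20 over all arrays and by -0.00 ± 0.15 without HR replicates 4 and 5. With the neuron marker mean as a covariate SCARB2 turned to 0.03 ± 0.13, and with the microglia marker mean it was -0.16 ± 0.19. LAMP1 had 7.45, 8.18 and 8.79 in HR and 7.70, 8.33 and 8.72 in LR, a difference of -0.01 ± 0.17. NPC1, the cholesterol exporter of the lysosomal membrane, had 9.47, 9.83 and 10.30 in HR and 9.58, 9.91 and 10.05 in LR, a difference of -0.06 ± 0.10. The probe set of LAMP2 can bind several transcripts.

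AGA encodes aspartylglucosaminidase, which cleaves the link between asparagine and sugar in glycoproteins (chromosome 15, 39702900 to 39714566 in Sscrofa11.1). Its 2 probe sets, both able to bind several transcripts, gave different pictures. The brightest had a lowest, median and highest of 6.62, 7.13 and 7.51 in HR and of 7.03, 7.20 and 7.37 in LR, and differed by -0.09 ± 0.11 (unadjusted p = 0.428). In the second probe set the HR replicates 1 to 10 had 6.51, 5.01, 5.44, 6.49, 5.56, 5.22, 6.75, 6.97, 5.84 and 6.79. The LR replicates 1 to 10 had 6.69, 7.16, 6.98, 6.89, 7.005, 7.25, 6.92, 6.43, 6.35 and 7.37 in that probe set. HR replicates 2, 3, 5, 6 and 9 thus lay below the lowest LR array and the other 5 HR arrays lay inside the LR range. The second probe set averaged 6.06 ± 0.72 in HR and 6.90 ± 0.33 in LR (SD, n = 10 each), differing by -0.85 ± 0.23 (unadjusted p = 0.00158, adjusted p = 0.861, limma). AGA was included with all its probe sets because this small p was known from earlier results, so it is a description and not a test of AGA. Leaving out single arrays gave differences of the second probe set from -0.95 (without HR replicate 8) up to -0.73 (without HR replicate 2). It was -0.88 ± 0.23 with the background control mean as a covariate and -1.17 without the 7 arrays whose background mean was over 1 SD from average. With both probe sets averaged AGA differed by -0.47 (unadjusted p = 0.00445, adjusted p = 0.863, limma).

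**Figure D3:**
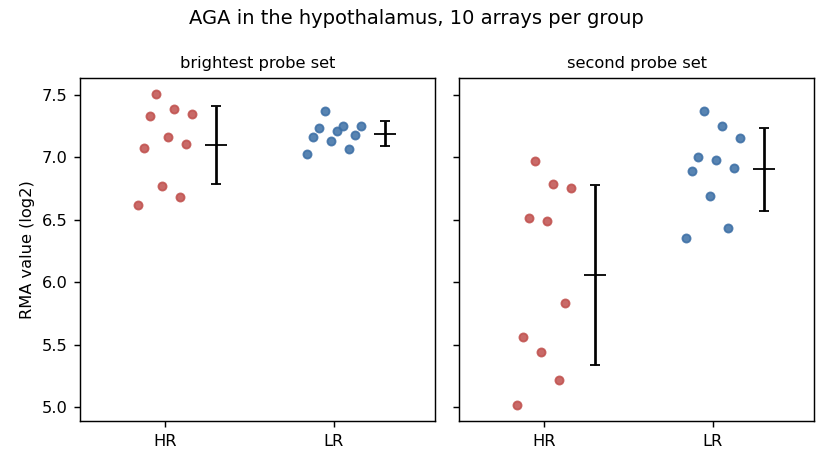
RMA values (log2) of the brightest (left) and the second (right) AGA probe set on a common scale, 1 point per array, HR left and LR right, with mean and SD of 10 arrays. In the second probe set 5 HR arrays lie between 5.01 and 5.84, below the lowest LR array at 6.35, whereas the brightest probe set spans 6.62 to 7.51 in HR and 7.03 to 7.37 in LR.

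Several probe sets passed the filter in 9 of the 30 genes, with all differences of a gene on 1 side of 0 in 6 of them. All 7 such probe sets of LAMP2 had differences between -0.57 and -0.33 and all 3 of SCARB2 between -0.49 and -0.23. CTSH, GLB1 and IDS had differences on both sides, between -0.15 and 0.09. Across the 20 arrays the brightest probe set was set against each other probe set of its gene, in 19 pairs. The 6 LAMP2 pairs correlated with r between 0.980 and 0.995 (rho between 0.958 and 0.991) and the 2 SCARB2 pairs with r of 0.978 and 0.975 (rho = 0.887 and 0.907), each with the permutation p given next for PSAP. For the pair of PSAP r was 0.951 (Spearman rho = 0.935, permutation p = 1e-05 each, the lower limit of 100000 permutations, adjusted p = 1.9e-05 and 2.11e-05 over the 19 pairs), 0.905 without the 2 arrays farthest from the median, and 0.983 within HR and 0.911 within LR. The 2 AGA probe sets correlated with r = 0.383 and rho = 0.277 (permutation p = 0.0943 and 0.236, adjusted p = 0.112 and 0.280), with r = 0.324 without the 2 farthest arrays, 0.377 within HR and 0.101 within LR. Pairs of 3 other genes had lower r than AGA, at -0.151 for 1 pair of IDS, 0.215 for 1 of SGSH and 0.264 for 1 of CTSH (rho = -0.0496, 0.179 and 0.197, permutation p of r = 0.522, 0.368 and 0.261, adjusted p of r = 0.522, 0.388 and 0.291). Of the 49 probe sets of these genes that passed the filter, 3 were at an unadjusted p under 0.05, those of PPT1 and LIPA and the second of AGA, where 4.57% of all probe sets tested were at that level. The small p of the AGA probe set was known when the genes were chosen, so this count is a description and not a test.

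The levels of the lysosomal genes varied between animals mostly in 2 opposite blocks that went with the background control mean of the array. Of the 30 genes, 19 correlated positively and 8 negatively with it at an adjusted p under 0.05 over all probe sets tested, and 3 (IDS, NPC1 and CTSC) did not. These 27 are 90% of the genes, against 83% of all probe sets tested, of which 51.2% correlated positively and 31.8% negatively, so such correlations were about as frequent elsewhere on the array. The positive block held CTSA, CTSB, CTSD, CTSH, CTSZ, TPP1, GAA, GLB1, GUSB, HEXA, IDUA, NEU1, ARSB, SGSH, SMPD1, PSAP, NPC2, GRN and LAMP1. The negative block held LAMP2, SCARB2, MANBA, CTSS, FUCA1, PPT1, AGA and LIPA. These blocks hold for the brightest probe set of each gene. The second AGA probe set had r = 0.00433 with the background (rho = 0.111, permutation p = 0.985 and 0.640, adjusted p of r = 0.986). The other 2 IDS probe sets that passed the filter had r of -0.917 and 0.520 (rho = -0.830 and 0.541, permutation p of r = 1e-05 and 0.0164, adjusted p of r = 2.74e-05 and 0.0209), so the place of IDS outside the blocks depends on the probe set. CTSH likewise had a probe set outside the positive block, with r = 0.283 (rho = 0.262, permutation p of r = 0.226, adjusted p of r = 0.249). CTSD had r = 0.893 and rho = 0.917 and LAMP2 had r = -0.886 and rho = -0.944 (permutation p = 1e-05 each, again that lower limit, adjusted p of r = 2.74e-05 for each gene). Without HR replicate 5 and LR replicate 8, the 2 arrays farthest from the median background, r was 0.867 for CTSD and -0.867 for LAMP2. Within the groups r was 0.906 in HR and 0.903 in LR for CTSD, and -0.921 in HR and -0.825 in LR for LAMP2. For LIPA r was -0.522 over all arrays (rho = -0.328, permutation p = 0.0161 and 0.157) but -0.707 within HR and 0.383 within LR, and NPC1 had 0.157 over all arrays (rho = 0.119, permutation p = 0.510 and 0.620), -0.0525 within HR and 0.887 within LR. The sign of r was the same within HR and within LR in 26 of the 30 genes. In some of these r was weak within LR, as in PPT1 (-0.768 in HR and -0.112 in LR). AGA had -0.721 in HR and -0.0614 in LR with its brightest probe set, and ARSB had 0.875 and 0.120. The neuron marker mean was also lowest in HR replicates 5 (9.30) and 4 (9.39). The mean of the 7 measured astrocyte markers was likewise lowest in these arrays (10.23 and 10.33). The median r with the background was -0.812 over the neuron markers and -0.880 over the astrocyte markers. The part of either list in these blocks was not tested, and the astrocyte markers were not used as a covariate.

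**Figure D4:**
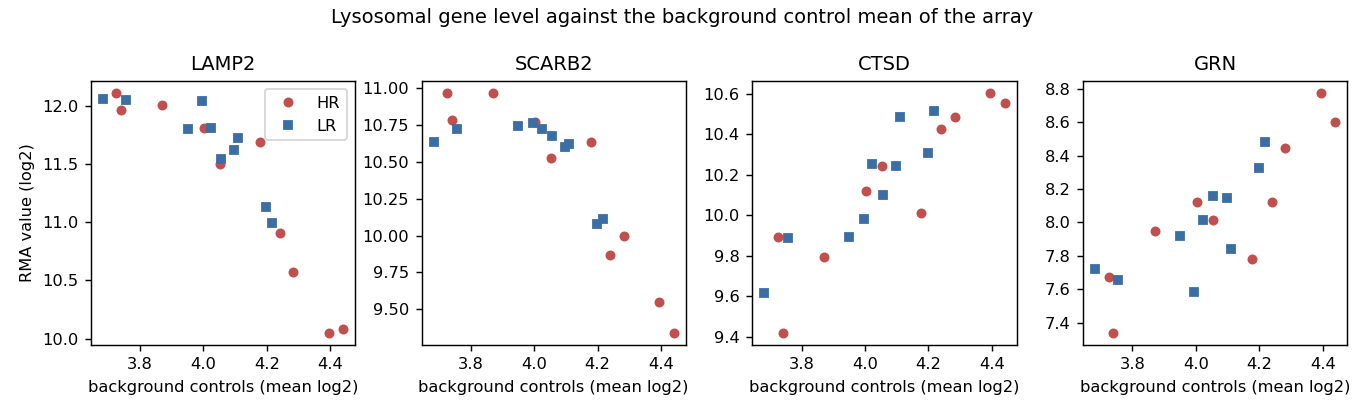
RMA values (log2) of LAMP2, SCARB2, CTSD and GRN against the mean log2 value of the 69 background control probe sets of the same array, with HR as circles and LR as squares. LAMP2 and SCARB2 run down and CTSD and GRN run up with the background, with HR and LR arrays along the same line.

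The mean deviation of the 30 genes from their own means was -0.02 ± 0.13 in HR and 0.02 ± 0.11 in LR (SD, n = 10 each). HR replicate 9 was the lowest, with -0.33 and 23 of 30 genes below their means, and it held the lowest of all 20 values for 14 genes. The highest was LR replicate 5 with 0.20 and 23 of 30 genes above their means. HR replicates 4 and 5 were near the middle with 0.06 each, since their high and low genes cancelled, but they held the highest value for 6 and 7 genes and the lowest for 4 and 4. The SD was larger in HR than in LR for 25 of the 30 genes (83.3%), as it was for 80.4% of all probe sets tested.

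**Figure D5:**
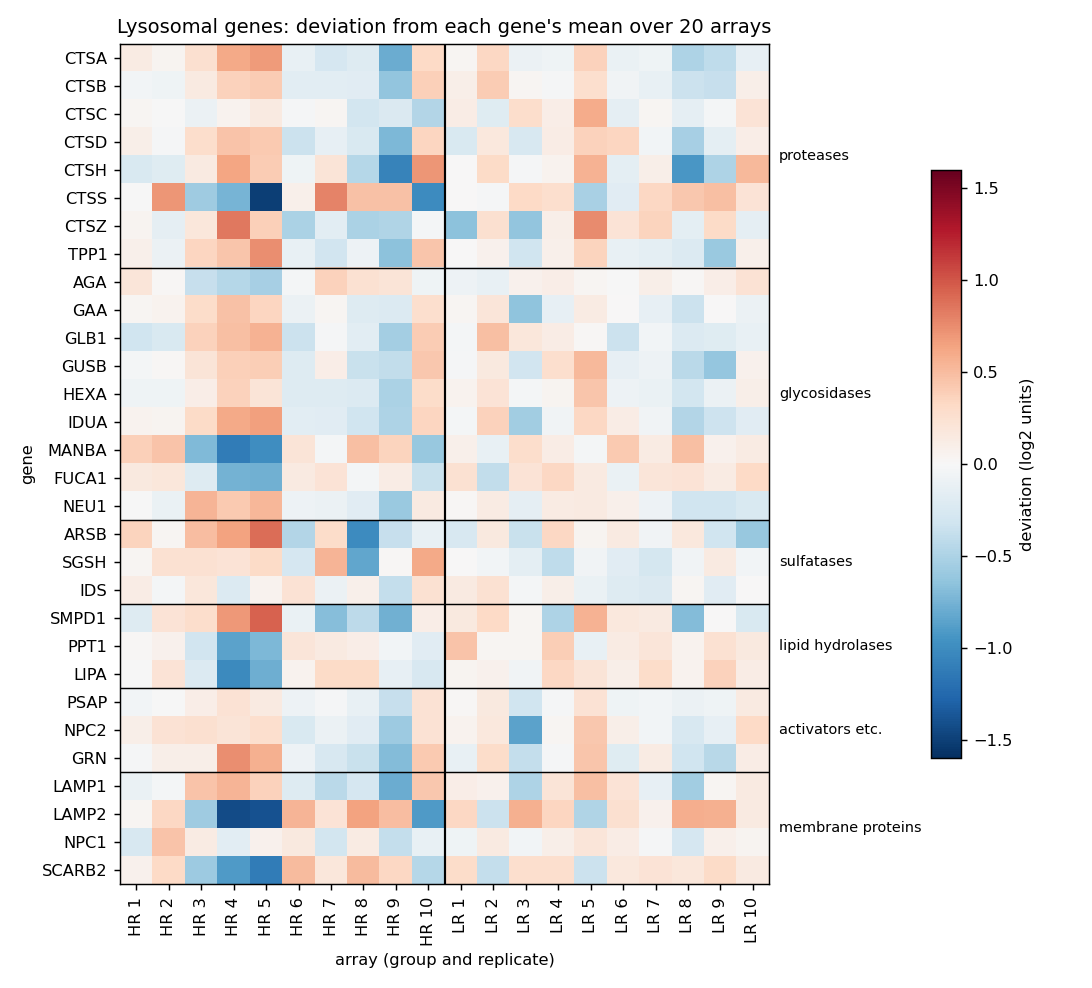
Deviation of each of the 30 lysosomal genes (rows, by role) from its own mean over 20 arrays, in log2 units, with HR arrays left and LR arrays right of the line. HR 4 and HR 5 are high for most hydrolases and low for LAMP2, SCARB2, CTSS, MANBA, FUCA1, PPT1, LIPA and AGA. HR 9 is low in 23 of 30 genes.

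Other genes of the lysosome, from lists of hydrolases, membrane proteins, the proton pump, sorting factors and regulators, also had 0 past the threshold in limma. Of 14 other hydrolases 0 were at an unadjusted p under 0.05 (7 below and 7 above 0, median -0.01), with the cysteine protease CTSO at -0.41 ± 0.23 and FUCA2 at -0.24 ± 0.17. Of 16 other membrane proteins and transporters 0 were at that level (median 0.03), with TMEM192 at -0.11 ± 0.08 and the potassium and proton channel TMEM175 at 0.21 ± 0.17. The 15 subunits of the proton pump, which acidifies the lysosome, had 0 (median -0.05), with ATP6V1B2 at -0.24 ± 0.15 and ATP6V1D at -0.36 ± 0.24. The 18 sorting genes had 2 (11.1%, against 4.57% of all probe sets tested), both with lower values in HR (3.36% of all probe sets). These were VPS41 of the fusion complex HOPS at -0.32 ± 0.15 (unadjusted p = 0.0403) and the sorting receptor SORT1 at -0.26 ± 0.12 (unadjusted p = 0.0459). Both followed the background control mean negatively (r = -0.732 and -0.707, rho = -0.598 and -0.689, permutation p of r = 8e-05 and 0.00057, adjusted p of r = 0.000158 and 0.000921). The 8 regulators had 0 (median 0.04), with RRAGC, a GTPase of nutrient signalling, at -0.29 ± 0.21 and the folliculin gene FLCN at 0.13 ± 0.12. TFEB itself averaged 7.32 ± 0.27 in HR and 7.20 ± 0.23 in LR (SD, n = 10 each), a difference of 0.12 ± 0.11.

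Of the genes without a probe set under the listed symbol, ARSA was found through the synonym AS-A of the reference gene table, and CTSL under its older name CTSL1, which was added after the values were seen. ARSA, the sulfatase of myelin sulfatide, averaged 7.52 ± 0.44 in HR and 7.32 ± 0.25 in LR, a difference of 0.20 ± 0.15. The cysteine protease gene CTSL1 averaged 9.20 ± 0.37 in HR and 9.40 ± 0.15 in LR (SD, n = 10 each), a difference of -0.20 ± 0.13. Both probe sets can bind several transcripts and neither was at an unadjusted p under 0.05.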

How the data were processed

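RNA of the hypothalamus was hybridised to Affymetrix Porcine Snowball arrays, 1 for each of 10 HR and 10 LR pigs. The authors processed the scans with GCOS 1.1.1 and normalised them by RMA, and what they deposited is a table of log2 values with 47845 rows. The study's own filter on detection calls was not used here. Setting aside 123 controls left 47722 probe sets, and the 50% with the higher mean were kept (23861, lowest mean 5.21). Gene names are those of the platform annotation (26426 named probe sets) and the position of AGA is that of RefSeq on Sscrofa11.1. A suffix _s_st or _x_st marks a probe set able to bind more than 1 transcript.

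The groups were compared in R 4.3.3 by limma 3.58.1 (a linear model per probe set with moderated variances, HR minus LR). P-values were adjusted by the Benjamini-Hochberg method across these 23861 probe sets, with 0.05 as the threshold. The exact rank-sum test was an alternative. Correlations with the background controls used 100000 permutations (two-sided) and the same adjustment. The limma fit was tested on simulated data with independent noise in each probe set, so without variation shared across an array. RMA makes the arrays' distributions alike, so a shift of most transcripts would not be visible, and the number of arrays limits the precision. The members and gene lists were chosen with earlier results of these data known. All members are named, with values by group for both AGA probe sets, the 4 of smallest p in each direction and 12 listed genes, of which GALC had no probe set of that name, and 2 genes of smallest p from each other list. TFEB is named besides. Alternatives covered the filter, normalisation, array weights, a variance trend, covariates, the choice of probe set and left-out arrays.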

Additional observations from a re-analysis of the deposited data

Results flagged for a closer look

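An array stood apart from the other 9 of its group in 2 of 64 sets of 10 values, where chance gives about 1 in 20. NPC2 had 8.22 in LR replicate 3, against 8.82 in the next lowest LR array. This array also had the highest thalamus marker mean, 8.49, whose part in the value was not tested. The mean deviation of the 30 lysosomal genes from their own means was -0.33 in HR replicate 9, against -0.12 in the next lowest HR array. The background control mean of HR replicate 9 was 3.74 and its microglia marker mean, 8.65, was the lowest of the HR arrays. Their part in the value was not tested.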

How the results depend on the processing

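In each setting run, 0 of the lysosomal genes passed the threshold in limma or the exact rank-sum test, with a smallest adjusted p of 0.468, for the second AGA probe set with array weights. The count at an unadjusted p under 0.05, 2 over all arrays, ranged over 1 to 3 with single arrays left out. It was 1 with centring, with repeated quantile normalisation and with the background, microglia or neuron markers as a covariate. That gene was PPT1 in each of these settings except with the neuron markers, where it was CTSZ (-0.31, unadjusted p = 0.0205). With array weights the 2 were PPT1 and SGSH (0.29, unadjusted p = 0.0159). Averaging the kept probe sets of each gene made the count 3 (AGA, PPT1 and LIPA), against 4.45% of all tested. It was 0 without the 7 arrays whose background was over 1 SD from average and 0 without HR replicates 4 and 5, a setting chosen after seeing the data. With single arrays left out, PPT1 was at that level in 20 of 20 fits and LIPA in 6 (without HR replicate 1, 2, 6, 7 or 8 or LR replicate 3). FUCA1 reached it without HR replicate 2 or 7 or LR replicate 2, SGSH without HR replicate 8 and GAA without HR replicate 9. The median difference lay between -0.05 (without LR replicate 8) and 0.08 (without HR replicate 9), and between -0.08 and 0.03 in the other settings. Of the 30 differences, 8 changed sign with the background as a covariate, 14 with the neuron markers and 12 without the 7 arrays, none of which had been past the threshold. No paired analysis was possible because nothing in the labels pairs the animals of the groups. The replicate numbers used here were assigned within each group in the order of the samples.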
